A study of Mus musculus with 15 samples.

Results

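The Fos and Jun family genes Fos, Fosb, Fosl1, Fosl2, Jun, Junb and Jund were taken by symbol from a table of RNA sequencing counts and compared over 5 groups of E0771 cells. These 7 genes were 7 of 55571 gene rows, and 6 of them, all but Jund, passed a filter on low counts that left 14571 genes for testing. E0771 is a mouse mammary carcinoma cell line. The groups were cells with the Malt1 substitution V87R (Malt1_V87R), cells with the substitution L88D (Malt1_L88D), cells with a mutant called PD (Malt1_PD), cells with wild-type Malt1 (Malt1_WT) and cells with the vector control (Vector), with 3 libraries each and 15 in all. Malt1 is a scaffold and protease of the signalling complex that it forms with Bcl10, upstream of NF-kB and of JNK. The labels do not spell out PD, and the column names behind it refer to a changed cysteine. They give no promoter for the constructs, no treatment beyond the absence of T cells from the culture, and no word on whether a group was a pool or a clone, or whether its replicates were separate cultures. The p-values below therefore measure the spread between these libraries, and a construct cannot be told apart from the cell population that carried it.

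Fos and Jun proteins are basic leucine zipper transcription factors that pair to form AP-1. Jun proteins can pair with each other or with a Fos protein, whereas Fos proteins need a partner such as a Jun protein to bind DNA. Fos, Fosb, Jun and Junb are known as immediate-early genes, which are transcribed within minutes of a growth factor or stress signal without new protein synthesis, and Fosl1 is induced later and depends in part on AP-1 itself. In carcinoma cells AP-1 is known for its targets among the matrix proteases, cytokines and cell cycle genes.

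The libraries held between 15471746 and 21458457 counts each. Levels are given as counts-per-million (CPM), with library totals scaled by the trimmed mean of M-values (TMM). A count of 0 allows up to 3 counts, which is 0.139 to 0.196 CPM depending on the library, and this limit covers counting error only. Malt1 mRNA was at 280 ± 1.35 CPM in Malt1_V87R, 252 ± 6.74 CPM in Malt1_L88D, 250.1 ± 8.87 CPM in Malt1_PD, 202 ± 7.97 CPM in Malt1_WT and 28.2 ± 1.92 CPM in Vector (SD, n = 3 each). Of 11 epithelial markers, 2 passed the filter on low counts. Krt8 averaged 89.7 to 117 CPM and Epcam 5.67 to 9.75 CPM over the groups. Cdh1, at 0.285 to 0.429 CPM, and Krt18, at 0.215 to 0.375 CPM, were near 0. So were Krt5, Krt7, Krt14, Krt19, Cldn3, Cldn7 and Esrp1, at 0.337 CPM or less in every group.

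The promoters are shown because Fos, Fosb and Junb had the largest fold changes of the family and Jun differed between Malt1_PD and Malt1_WT. Each is the 250 bases before the RefSeq gene start on GRCm38.p6, written 5′ to 3′ on the strand of the gene, at chr12:85473640-85473889 (plus) for Fos, chr7:19310046-19310295 (minus) for Fosb, chr8:84978749-84978998 (minus) for Junb and chr4:95052223-95052472 (minus) for Jun. Capitals mark matches to TGACG, to TGACNNCA in Jun, to CCAAT and to TATAAA.
Fos: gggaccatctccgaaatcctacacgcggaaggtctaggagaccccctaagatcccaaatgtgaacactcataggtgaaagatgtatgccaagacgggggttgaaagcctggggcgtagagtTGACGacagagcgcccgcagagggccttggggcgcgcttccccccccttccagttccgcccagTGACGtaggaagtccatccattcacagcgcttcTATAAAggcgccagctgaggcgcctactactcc
Fosb: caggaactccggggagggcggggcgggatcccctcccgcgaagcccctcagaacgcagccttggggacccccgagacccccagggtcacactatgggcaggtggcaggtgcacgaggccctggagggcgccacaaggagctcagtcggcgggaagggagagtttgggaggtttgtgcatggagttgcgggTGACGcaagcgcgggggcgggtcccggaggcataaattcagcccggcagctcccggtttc
Junb: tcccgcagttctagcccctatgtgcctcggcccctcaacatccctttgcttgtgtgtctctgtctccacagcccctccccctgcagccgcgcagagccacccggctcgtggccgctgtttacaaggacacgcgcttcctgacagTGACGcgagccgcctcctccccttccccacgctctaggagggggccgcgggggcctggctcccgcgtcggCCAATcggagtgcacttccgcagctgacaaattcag
Jun: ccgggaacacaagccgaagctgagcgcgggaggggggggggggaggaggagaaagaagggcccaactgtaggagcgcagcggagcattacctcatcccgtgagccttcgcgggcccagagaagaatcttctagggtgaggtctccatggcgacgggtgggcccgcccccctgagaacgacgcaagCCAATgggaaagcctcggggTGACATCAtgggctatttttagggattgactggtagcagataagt

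Promoters of 6 of the 7 members, all but Fosl1, were matched by symbol, and both strands were searched. TGACG, the core of the cAMP response element, was found at bases -129 to -125 and -66 to -62 from the start of Fos, at -60 to -56 of Fosb and at -106 to -102 of Junb. It occurred in 17.8% of 32851 promoter windows of the same length. The octamer TGACNNCA, a class that includes the Jun and ATF site of the Jun promoter, was found as TGACATCA at -45 to -38 of Jun and as TGACGACA at -129 to -122 of Fos, where it overlaps a TGACG match, and it occurred in 15.6% of windows. CCAAT was found at -65 to -61 of Jun and at -36 to -32 of Junb and in 33.8% of windows, and TATAAA at -33 to -28 of Fos and in 12.4% of windows. A match to the NF-kB motif was found in Fos (-214 to -205), Fosb (-188 to -179) and Fosl2 (overlapping matches within -182 to -172), against 3.9% of windows. TGANTCA, the AP-1 site itself, occurred in 6.75% of windows and the CArG box of serum response factor in 1.47%. Neither was found in the windows of the 6 matched members, and Fosl1 was not searched. Bases outside these windows were not searched, so such sites may lie further from the start. The Jund window (chr8:70697489-70697738) ends before the GENCODE M21 start of Jund at 70698949. The Fosl2 window (chr5:32136222-32136471, plus) lies inside the GENCODE M21 gene, which starts at 32135801. The Fosl2 matches are therefore upstream of the RefSeq start but not of the GENCODE start. A match describes these letters and shows no binding.

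All 6 tested members were higher in Malt1_PD than in Vector and in Malt1_WT than in Vector, while 0 in Malt1_V87R and 1 in Malt1_L88D (Fosl1) passed the test against Vector. For all 6, the libraries of Malt1_PD and of Malt1_WT lay above those of Vector, as for 24.8% and 29.2% of all genes. Malt1_V87R, Malt1_L88D and Vector are called the low groups below. Between Malt1_PD and Malt1_WT, 3 members (Fosl1, Fosl2 and Jun) were lower in Malt1_PD.

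**Figure D1:**
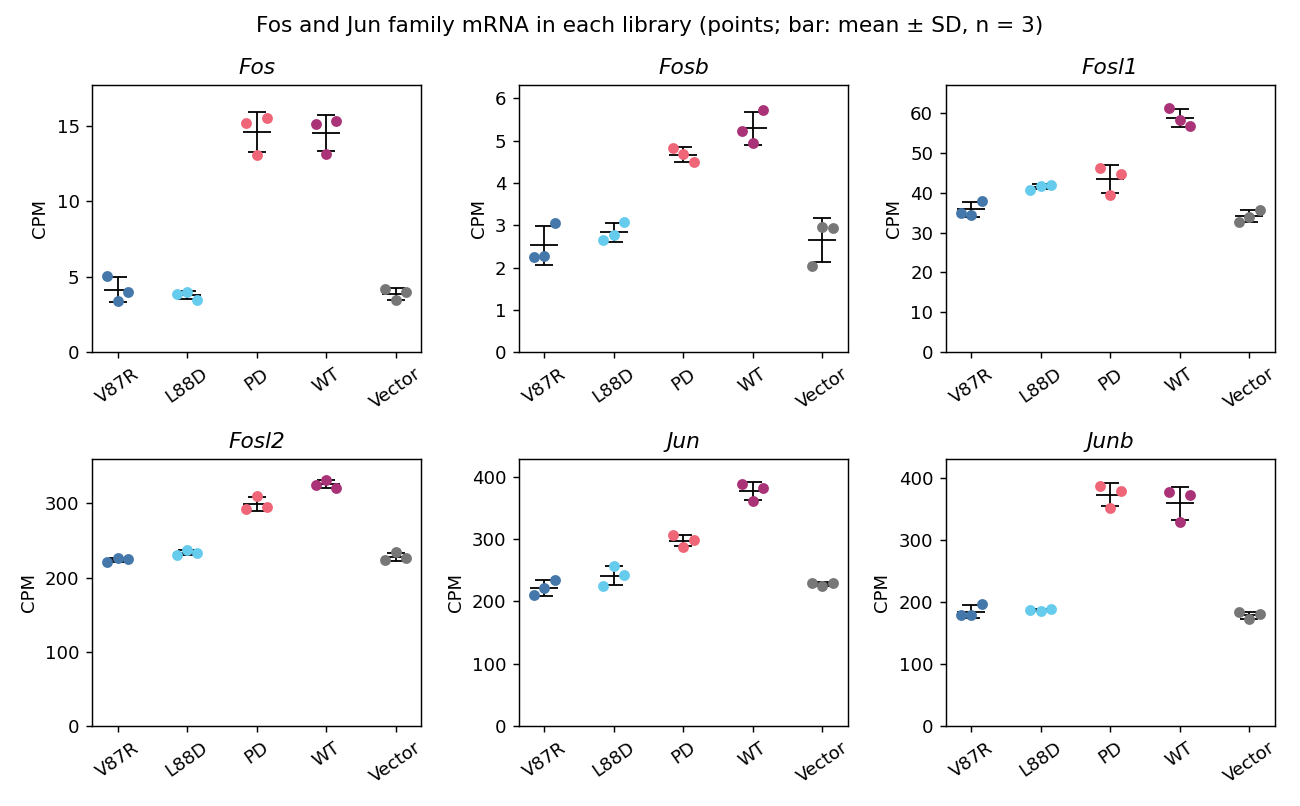
CPM of the 6 tested members in each of the 15 libraries, 1 panel a gene, with the groups V87R, L88D, PD, WT (all Malt1) and Vector along the x axis; points are libraries and bars the mean ± SD (n = 3). For every gene the PD and WT points lie above all Vector points, and for Fosb, Fosl1, Fosl2 and Jun the WT points also lie above all PD points.

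Fos, the founding member and partner of Jun, had 15.2, 13.1 and 15.5 CPM in Malt1_PD, and 15.1, 13.1 and 15.3 CPM in Malt1_WT. It had 5.06, 3.40 and 4.01 CPM in Malt1_V87R, 3.85, 4.0 and 3.49 CPM in Malt1_L88D, and 4.18, 3.44 and 4.02 CPM in Vector. The libraries thus formed a high set of 6 and a low set of 9 with no overlap between them, and within each set the groups overlapped. Fos was 3.73-fold higher in Malt1_PD than in Vector (log2 fold change 1.90 ± 0.13 SE, edgeR adjusted p = 4.89e-13) and 3.70-fold higher in Malt1_WT than in Vector (adjusted p = 5.18e-13). Malt1_PD over Malt1_WT was 1.01-fold, with a 95% interval of 0.864 to 1.18 (adjusted p = 0.956). These values rest on 56 to 290 counts per library.

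Fosb, which also exists as a shortened splice form that these gene counts do not separate, was the lowest of the tested members. Its level was 4.83, 4.69 and 4.50 CPM in Malt1_PD and 5.22, 4.95 and 5.72 CPM in Malt1_WT. In the low groups it was 2.25, 2.28 and 3.06 CPM in Malt1_V87R, 2.65, 2.76 and 3.08 CPM in Malt1_L88D and 2.04, 2.95 and 2.94 CPM in Vector. All 6 libraries of Malt1_PD and Malt1_WT lay above the other 9, and the Malt1_PD libraries all lay below those of Malt1_WT. Fosb was 1.78-fold higher in Malt1_PD than in Vector (log2 0.83 ± 0.17 SE, edgeR adjusted p = 0.000162) and 2.02-fold higher in Malt1_WT than in Vector (adjusted p = 8.71e-06). The gap between Malt1_PD and Malt1_WT did not pass the test (0.883-fold, interval 0.709 to 1.10, adjusted p = 0.446).

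Fosl1 encodes Fra-1, a Fos protein without the C-terminal activation domain of Fos that is abundant in many invasive carcinoma cells. It had 46.1, 39.5 and 44.6 CPM in Malt1_PD, and 61.2, 58.3 and 56.7 CPM in Malt1_WT. It had 34.9, 34.4 and 38.0 CPM in Malt1_V87R, 40.8, 41.8 and 41.8 CPM in Malt1_L88D, and 32.6, 33.9 and 35.7 CPM in Vector. Malt1_WT stood above all other groups, Malt1_L88D overlapped Malt1_PD but lay above every Vector library, and Malt1_V87R overlapped Vector. Fosl1 was 1.28-fold higher in Malt1_PD than in Vector (log2 0.35 ± 0.06 SE, edgeR adjusted p = 3.37e-05), and 1.72-fold higher in Malt1_WT than in Vector (adjusted p = 8.62e-12). It was 1.22-fold higher in Malt1_L88D than in Vector (log2 0.28 ± 0.06 SE, adjusted p = 0.00186). Malt1_PD was at 0.740-fold of Malt1_WT (log2 -0.43 ± 0.06 SE, adjusted p = 3.58e-06), with no overlap between their libraries.

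Of the 2033 exon bases of Fosl1, 1163 are shared with Ccdc85b on the opposite strand, and whether the counting used strand is not given in the sources used here, so reads of the pair may not have been separated. Ccdc85b had 33.5 ± 0.465 CPM in Malt1_PD, 42.1 ± 2.51 CPM in Malt1_WT and 41.2 ± 2.23 CPM in Vector (SD, n = 3 each). It was lower in Malt1_PD than in Malt1_WT, as Fosl1 was (0.798-fold, edgeR adjusted p = 0.000149). Against Vector it was lower in Malt1_PD (0.812-fold, adjusted p = 9.92e-05), where Fosl1 was higher, and at 1.02-fold in Malt1_WT (adjusted p = 0.738). Its part in the Fosl1 values was not tested.

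Fosl2, which encodes Fra-2, the relative of Fra-1, had the smallest fold change of the tested members in Malt1_WT. It had 293, 310.4 and 295 CPM in Malt1_PD and 325, 331 and 321 CPM in Malt1_WT. In the low groups it had 222, 227 and 224 CPM in Malt1_V87R, 231, 238 and 233 CPM in Malt1_L88D, and 224, 234 and 226 CPM in Vector. The Malt1_PD libraries lay above the 9 of the low groups and below the 3 of Malt1_WT. Fosl2 was 1.31-fold higher in Malt1_PD than in Vector (log2 0.39 ± 0.04 SE, edgeR adjusted p = 2.65e-10) and 1.43-fold higher in Malt1_WT than in Vector (adjusted p = 6.2e-13). Malt1_PD was at 0.919-fold of Malt1_WT (log2 -0.12 ± 0.04 SE, adjusted p = 0.0134), a call that was lost without Malt1_PD replicate 1 (adjusted p = 0.0532) and without Malt1_PD replicate 3 (adjusted p = 0.0508).

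Jun, which JNK phosphorylates and which can activate its own promoter, had 306, 288 and 299 CPM in Malt1_PD, and 389, 362 and 382 CPM in Malt1_WT. It had 209.6, 222 and 234 CPM in Malt1_V87R, 225, 257 and 242 CPM in Malt1_L88D, and 229, 225 and 229.9 CPM in Vector. The order was Malt1_WT above Malt1_PD above the low groups, with no overlap at either step. Jun was 1.31-fold higher in Malt1_PD than in Vector (log2 0.39 ± 0.05 SE, edgeR adjusted p = 4.31e-08) and 1.66-fold higher in Malt1_WT than in Vector (log2 0.73 ± 0.05 SE, adjusted p = 5.85e-14). Malt1_PD was at 0.788-fold of Malt1_WT (log2 -0.34 ± 0.05 SE, adjusted p = 1.49e-06). Junos, an antisense gene that covers 232 of the 3189 exon bases of Jun, averaged 2.07 to 3.05 CPM over the groups. It was higher in Malt1_L88D than in Malt1_PD (1.48-fold, adjusted p = 0.0191), the reverse of Jun, and did not pass the test in the other 9 comparisons. Its Malt1_PD libraries lay below those of Vector (0.733-fold, adjusted p = 0.0636) and of Malt1_WT (0.801-fold, adjusted p = 0.285).

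Junb, a weaker activator than Jun that can oppose it on some promoters, had its highest levels in Malt1_PD and Malt1_WT. It had 388, 352 and 379.9 CPM in Malt1_PD, and 377, 329 and 373 CPM in Malt1_WT. It had 179, 179 and 196 CPM in Malt1_V87R, 187, 186 and 188 CPM in Malt1_L88D, and 184, 173 and 180.4 CPM in Vector. The libraries of Malt1_PD and Malt1_WT overlapped each other and lay above all other libraries, and those of Malt1_L88D lay just above those of Vector. Junb was 2.09-fold higher in Malt1_PD than in Vector (log2 1.06 ± 0.05 SE, edgeR adjusted p = 1.66e-16) and 2.01-fold higher in Malt1_WT than in Vector (adjusted p = 3.57e-16). Malt1_PD over Malt1_WT was 1.04-fold, with an interval of 0.970 to 1.11 (adjusted p = 0.452). Prdx2, which shares 173 of the 2301 exon bases of Junb on the opposite strand, was lower than in Vector in both Malt1_PD (0.829-fold) and Malt1_WT (0.765-fold), the reverse of Junb.

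Jund, the member that is usually transcribed steadily in resting cells, had 0 to 2 counts per library and 8 counts over all 15. By group it had 1 count in Malt1_V87R, 1 in Malt1_L88D, 2 in Malt1_PD, 0 in Malt1_WT and 4 in Vector, each summed over 3 libraries. Every library was at or below 3 counts, so no difference between groups can be read from these counts. Its single exon of 1668 bases is overlapped over 877 bases by Gm11175 on the opposite strand, which was at 0 in all 15 libraries. What the counting did with reads over both genes is not given in the sources used here and its part was not tested, so these counts may not measure Jund mRNA.

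**Figure D2:**
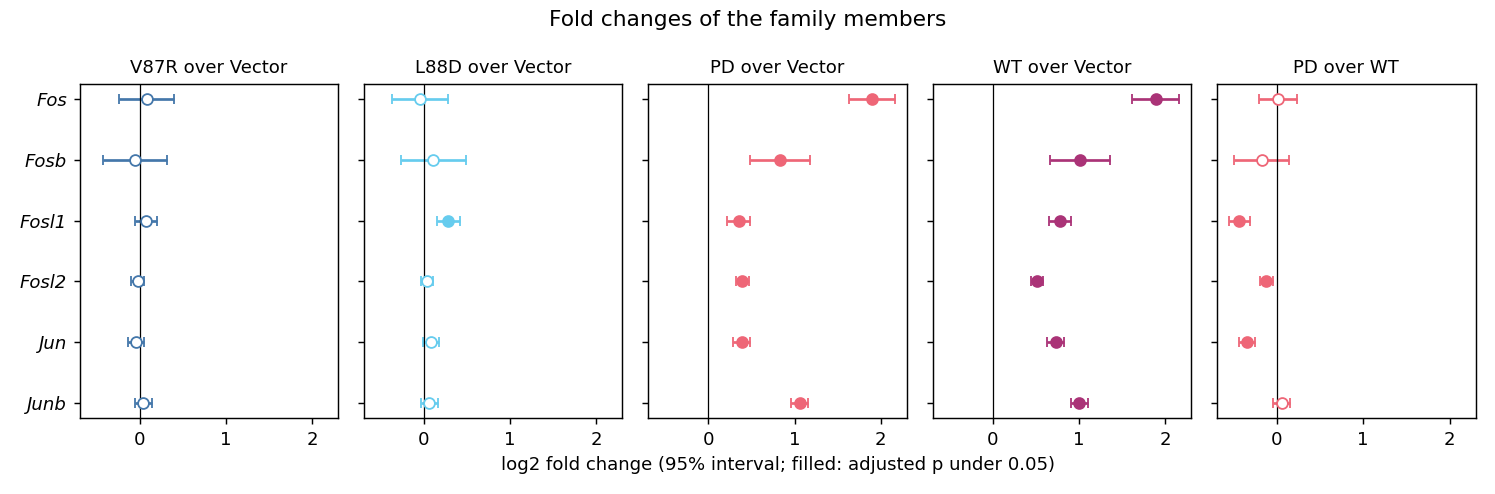
Log2 fold changes of the 6 tested members with 95% intervals in 5 comparisons, filled where the edgeR adjusted p is under 0.05. All points for PD over Vector and WT over Vector are filled and right of 0, 1 is filled for L88D over Vector, none for V87R over Vector, and for PD over WT the filled points of Fosl1, Fosl2 and Jun lie left of 0.

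The comparison of Malt1_V87R with Vector called 0 of 6 members by edgeR, with 0 at an unadjusted p under 0.05 (23.9% of all genes) and 0 by DESeq2 and limma-voom. The comparison called 11.7% of all genes, 1706 genes, and 1130 without Malt1_V87R replicate 2. Their fold changes ran from 0.964 (Fosb) to 1.06 (Fos), and the intervals were narrow for the abundant members, at 0.935 to 1.04 for Fosl2, 0.913 to 1.04 for Jun and 0.962 to 1.11 for Junb. They were wide for Fos (0.851 to 1.32) and Fosb (0.743 to 1.25). The median log2 fold change of the 6 was 0.01, against 0.00 over all genes. Of all genes 7.01% were higher and 4.70% lower. The comparison of Malt1_L88D with Vector called 1 of 6 members, higher, with a median of 0.07 against -0.01 over all genes, and it called 17.4% of all genes, 8.96% higher and 8.43% lower. These were 2534 genes, and 1545 without Vector replicate 1. These and the next comparisons share the same 3 Vector libraries.

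Malt1_PD against Vector called 6 of 6 members higher, where 44.8% of all genes were called, 22.8% higher and 22.0% lower. Malt1_WT against Vector likewise called 6 of 6 higher, where 54.9% of all genes were called, 27.2% higher and 27.7% lower. The libraries of all 6 members lay above those of Vector without overlap in both comparisons, as did those of 24.8% of all genes in Malt1_PD and 29.2% in Malt1_WT. The median log2 fold change of the 6 was 0.61 in Malt1_PD and 0.90 in Malt1_WT, beside 0.00 and -0.01 over all genes. Malt1_PD against Malt1_WT called 3 of 6 lower and 0 higher, while 23.3% of all genes were called, 12.6% higher and 10.7% lower. The libraries of 4 members lay below those of Malt1_WT without overlap, as did those of 15.8% of all genes.

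The V87R and L88D substitutions were also set against the other constructs. Malt1 mRNA itself was 1.38-fold higher in Malt1_V87R and 1.24-fold higher in Malt1_L88D than in Malt1_WT. All 6 members were lower in Malt1_V87R than in Malt1_WT, in a comparison where 23.4% of all genes were lower, with fold changes of 0.286 for Fos, 0.478 for Fosb, 0.513 for Junb, 0.588 for Jun, 0.609 for Fosl1 and 0.689 for Fosl2 (edgeR adjusted p from 1.39e-15 to 4.79e-06). All 6 were lower in Malt1_L88D than in Malt1_WT too, beside 22.3% of all genes, from 0.262-fold for Fos to 0.717-fold for Fosl2 (adjusted p from 2.51e-15 to 5.75e-05). Against Malt1_PD, 6 of 6 were lower in Malt1_V87R (21.1% of all genes) and 5 of 6 in Malt1_L88D (21.4% of all genes). Fosl1 was the exception, at 0.955-fold in Malt1_L88D of its level in Malt1_PD (interval 0.874 to 1.04, edgeR adjusted p = 0.423).

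Between Malt1_V87R and Malt1_L88D, edgeR called 0 of 6 members, as did DESeq2 and limma-voom, and 0% of all genes, with 2 genes called without Malt1_L88D replicate 1. At an unadjusted p under 0.05, which 5.85% of all genes reached, there were 2 members, Fosl1 at 0.863-fold (interval 0.789 to 0.943, adjusted p = 0.664) and Jun at 0.918-fold (interval 0.860 to 0.980, adjusted p = 0.742). The libraries of 2 members, Fosl1 and Fosl2 (0.960-fold, interval 0.912 to 1.01, adjusted p = 0.87), all lay lower in Malt1_V87R than in Malt1_L88D, as did those of 6.76% of all genes, and those of Jun overlapped.

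Levels of different members were compared per length, in transcripts-per-million (TPM), which divides each count by the exon length of its gene (GENCODE M21) before scaling every library to the same sum. Of the tested members, Junb was the most abundant and Jun the next in every group, followed by Fosl2, Fosl1, Fos and Fosb. The length of the longest transcript gave the same order. The place of Jund cannot be told, because its counts may not measure its mRNA. Reads over the bases that Fosl1 shares with Ccdc85b may not have been separated, so its place beside Fosl2 is uncertain. The sums and shares below take the Jund and Fosl1 counts as they stand. Together the 7 genes summed to 583 ± 25.8 TPM in Malt1_V87R, 607 ± 31.3 TPM in Malt1_L88D, 916 ± 9.36 TPM in Malt1_PD, 1032 ± 47.1 TPM in Malt1_WT and 566 ± 5.34 TPM in Vector (SD, n = 3 each). Fos, although it had the largest fold change, made up 1.97% of the family sum in Malt1_PD and 1.79% in Malt1_WT, against 0.860% in Vector.

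**Figure D3:**
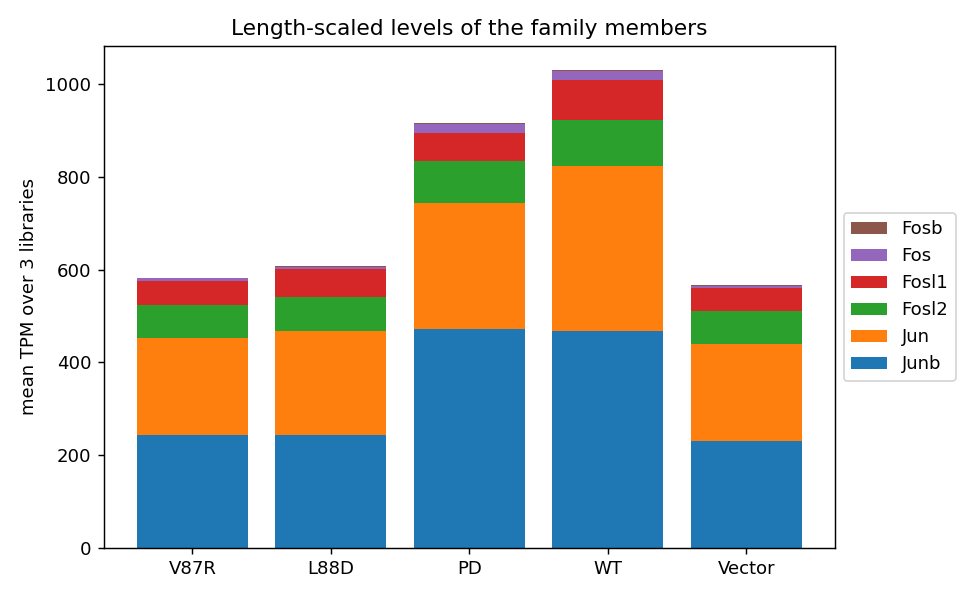
Mean TPM over 3 libraries of each family member, stacked by group, with no error bars. The stacks of PD and WT reach 916 and 1032 TPM against 566 TPM for Vector, and in PD the Junb part (472 TPM) is as tall as in WT (468 TPM) while the Jun part (272 TPM) is shorter than in WT (355 TPM).

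The balance within the Jun side differed between groups. Junb took 51.5 ± 0.581% of the family sum in Malt1_PD, 45.4 ± 1.27% in Malt1_WT and 40.6 ± 0.764% in Vector, and Jun took 29.7 ± 0.271%, 34.4 ± 0.352% and 37.3 ± 0.119% in the same groups (SD, n = 3 each). The TPM ratio of Junb to Jun was 1.74 ± 0.0349 in Malt1_PD, 1.32 ± 0.0499 in Malt1_WT and 1.09 ± 0.0236 in Vector, and the libraries of these groups did not overlap. It was 1.15 ± 0.0308 in Malt1_V87R, whose libraries also lay above those of Vector. In Malt1_L88D it was 1.08 ± 0.0741, and the libraries overlapped those of Vector. The exact permutation test, two-sided over 20 arrangements of 6 libraries, gave p = 0.1 for each pair among Malt1_PD, Malt1_WT and Vector. This is the smallest p that 3 against 3 allows. Any 3 against 3 without overlap gives it, so the test adds nothing to the lack of overlap. The Jun genes together stood at 4.31 ± 0.0953 times the Fos genes in Malt1_PD, 3.95 ± 0.221 times in Malt1_WT and 3.52 ± 0.139 times in Vector, with the Jund and Fosl1 counts taken as they stand.

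The genes whose pattern was most like a member were ranked by the root mean square difference of log2 CPM, centred over the 15 libraries, among 9369 tested genes of at least 5 CPM. For Fos they were Traf1, Orai2 and Nbl1 (differences of 0.166, 0.180 and 0.190, beside an SD of 0.924 for Fos itself). Traf1, an adaptor of tumour necrosis factor receptors, averaged 121 ± 3.91 CPM in Malt1_PD, 116 ± 1.81 CPM in Malt1_WT and 26.0 ± 3.48 CPM in Vector (SD, n = 3 each). For Junb they were Pkn3, Col18a1 and Psph (0.0632 to 0.0667), and Pkn3, a protein kinase, averaged 38.5 ± 2.20 CPM in Malt1_PD, 38.6 ± 3.30 CPM in Malt1_WT and 18.5 ± 1.38 CPM in Vector. The nearest to Jun were Pld2, Mxi1 and Rhobtb1 (0.0560 to 0.0642). Mxi1, a repressor of the Myc network, averaged 182 ± 1.15 CPM in Malt1_PD, 229 ± 1.64 CPM in Malt1_WT and 149 ± 6.23 CPM in Vector, the graded order of Jun. The nearest to Fosl1 were Whamm, Fchsd2 and Elfn2 (0.0861 to 0.0985), to Fosl2 Sgpl1, Ppfia1 and Ywhag (0.0258 to 0.0423), and to Fosb Sh2b2, Fam43a and Lrrfip2 (0.130 to 0.138).

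Other genes of the pathway were read from lists, whose medians can be set beside medians over all genes of 0.00 in Malt1_V87R and Malt1_PD and -0.01 in Malt1_WT and Malt1_L88D, each against Vector. Their counts can be set beside the shares of all genes called, which were 22.8% higher and 22.0% lower in Malt1_PD and 27.2% higher and 27.7% lower in Malt1_WT. Against Vector, 7.01% were higher and 4.70% lower in Malt1_V87R, and 8.96% higher and 8.43% lower in Malt1_L88D. Against Malt1_WT, 12.6% were higher and 10.7% lower in Malt1_PD. Of 14 other AP-1 partners and related zipper proteins, 8 were tested. In Malt1_PD 7 were higher than in Vector and 0 lower (median log2 fold change 0.51), and in Malt1_WT 7 and 0 (median 0.52). Without Vector replicate 1 the Malt1_WT counts included 1 lower gene. Jdp2, a repressor that pairs with Jun, had 53.2 ± 2.91 CPM in Malt1_PD, 65.5 ± 1.91 CPM in Malt1_WT and 23.5 ± 1.39 CPM in Vector (SD, n = 3 each), which was 2.27-fold and 2.79-fold of Vector (edgeR adjusted p = 1.2e-15 and 3.75e-18). Maff, a small Maf protein, was at 1.86-fold and 2.22-fold of Vector in these groups. Malt1_PD against Malt1_WT had 5 of the 8 lower and 0 higher.

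Batf2, an interferon-induced zipper protein of the Batf family, had another order over the groups than the Fos and Jun genes. It had 16.2 ± 2.79 CPM in Malt1_V87R, 15.5 ± 0.870 CPM in Malt1_L88D, 3.36 ± 0.601 CPM in Malt1_PD, 21.1 ± 0.595 CPM in Malt1_WT and 1.95 ± 0.167 CPM in Vector (SD, n = 3 each). Malt1_PD, where Fos and Junb were as high as in Malt1_WT, was thus the lowest of the 4 constructs for Batf2, and its libraries overlapped with none of the other groups. Batf2 was 8.20-fold higher in Malt1_V87R than in Vector (edgeR adjusted p = 1.54e-15), 7.89-fold in Malt1_L88D (adjusted p = 3.95e-15), 1.72-fold in Malt1_PD (adjusted p = 0.00171) and 10.7-fold in Malt1_WT (adjusted p = 6.29e-18). Malt1_PD was at 0.160-fold of Malt1_WT (adjusted p = 4.4e-15).

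Of 30 other immediate-early genes, 25 were tested. In Malt1_PD 17 were higher than in Vector and 1 lower (median log2 fold change 0.92), and in Malt1_WT 19 higher and 1 lower (median 1.01). The 1 lower gene was Ier5l in both, named after its values were seen, and the count in Malt1_PD was 3 lower without Malt1_PD replicate 2 and 2 lower without Vector replicate 1. Phlda1 was at 3.18-fold of Vector in Malt1_PD and 3.65-fold in Malt1_WT, Plk2, a polo-like kinase, at 2.65-fold and 3.22-fold, and Ier3, an early gene that NF-kB is known to induce, at 3.32-fold in Malt1_PD (edgeR adjusted p = 2.49e-18). Malt1_V87R and Malt1_L88D differed from Vector in both directions, with 4 higher and 9 lower in Malt1_V87R and 5 higher and 8 lower in Malt1_L88D. Without Vector replicate 1 the higher count in Malt1_V87R was 2. Csrnp1 was higher by 1.90-fold in Malt1_V87R and 1.95-fold in Malt1_L88D (adjusted p = 6.35e-12 and 3.41e-12), beside 4.09-fold in Malt1_WT. Malt1_PD against Malt1_WT had 6 of the 25 higher and 10 lower, with Csrnp1 at 0.606-fold, Ccn1, a matricellular growth factor, at 0.550-fold and Myc, a regulator of growth, at 1.21-fold (adjusted p = 1.08e-10, 1.45e-08 and 4.95e-07).

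**Figure D4:**
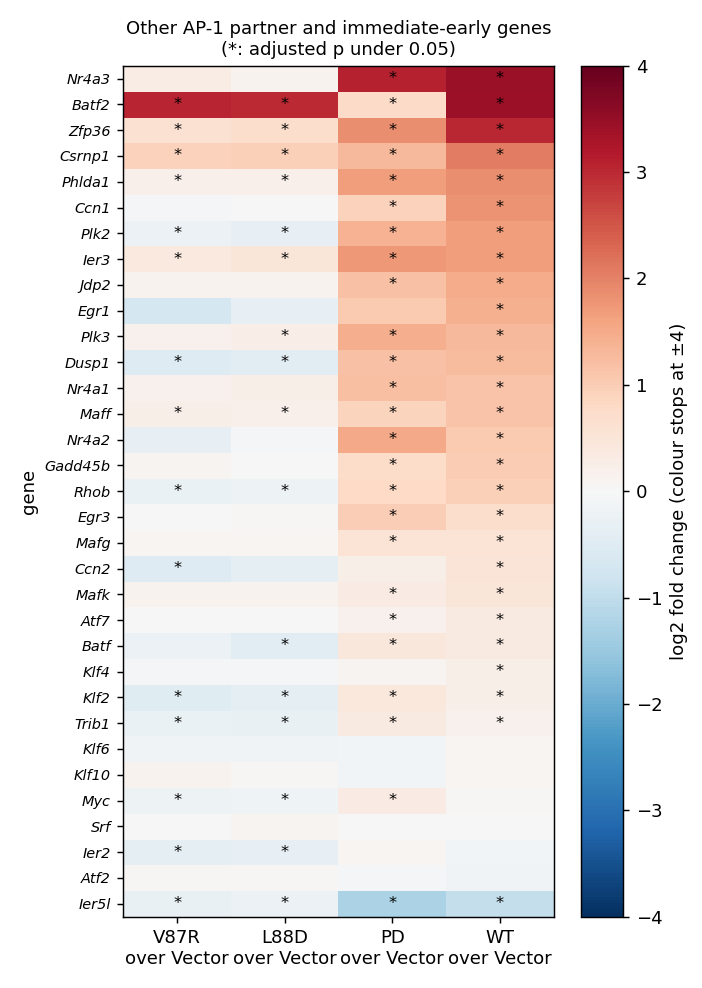
Log2 fold changes over Vector (colour, limited at ±4) of the tested AP-1 partner and other immediate-early genes, 1 row a gene ordered by the WT column, with the Malt1 constructs V87R, L88D, PD and WT as columns; an asterisk marks an edgeR adjusted p under 0.05. Most rows are red in PD and WT and pale in V87R and L88D, and Batf2 is deep red in V87R, L88D and WT but pale in PD.

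Of the MAP kinase cascade genes upstream of AP-1, 23 of 24 were tested, and the changes were smaller. In Malt1_PD 9 were higher and 3 lower than in Vector (median log2 fold change 0.15), and in Malt1_WT 9 higher and 5 lower (median 0.15), or 3 lower without Malt1_WT replicate 3 or Vector replicate 3. Those 12 and 14 called genes of 23 stand beside 44.8% and 54.9% of all genes called in the same comparisons. Map2k1, the kinase of Erk1 and Erk2, was at 1.37-fold of Vector in Malt1_PD and 1.51-fold in Malt1_WT (edgeR adjusted p = 5.47e-11 and 7.93e-14). Mapk8, which encodes Jnk1, was at 1.52-fold in Malt1_WT, and Mapk3, which encodes Erk1, at 0.624-fold. These are mRNA levels and do not measure kinase activity. Of 9 tested MAP kinase phosphatases, which switch off Erk, Jnk and p38, 8 were higher and 0 lower in Malt1_PD (median log2 fold change 0.43) and 6 higher and 0 lower in Malt1_WT (median 0.42), where 22.8% and 27.2% of all genes were higher. Dusp5, a phosphatase of Erk, was at 2.24-fold of Vector in Malt1_PD and 2.86-fold in Malt1_WT. Dusp1 had 98.2 ± 3.13 CPM in Malt1_PD and 43.3 ± 2.18 CPM in Vector (2.27-fold), but was lower than in Vector in Malt1_V87R, at 30.4 ± 4.63 CPM (0.702-fold, adjusted p = 8.94e-05), and in Malt1_L88D, at 31.7 ± 3.21 CPM (0.737-fold, adjusted p = 0.00044).

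Of 21 genes with well described AP-1 sites, 20 were tested. In Malt1_PD 18 were higher than in Vector and 2 lower (median log2 fold change 2.06), and in Malt1_WT 16 higher and 3 lower (median 2.30). Many of these genes are also NF-kB targets, and no DNA binding was measured. Il6, the cytokine, had 121 ± 5.91 CPM in Malt1_PD, 291 ± 7.23 CPM in Malt1_WT and 17.1 ± 0.547 CPM in Vector (SD, n = 3 each). The matrix protease gene Mmp3 was at 7.20-fold of Vector in Malt1_PD and 12.0-fold in Malt1_WT (edgeR adjusted p = 5.7e-23 and 8.08e-26). The lower genes, named after their values were seen, were Ccnd1, which encodes cyclin D1, and Vim in Malt1_PD, and Ccnd1, Vim and Spp1 in Malt1_WT.

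Part of these genes also differed from Vector in the groups where, of the tested Fos and Jun members, only Fosl1 in Malt1_L88D passed the test. In Malt1_V87R 12 of the 20 were higher than in Vector and 0 lower (median log2 fold change 0.23), and in Malt1_L88D 15 higher and 0 lower (median 0.29). Of all genes, 7.01% and 8.96% were higher in these comparisons. Il6 was at 2.31-fold of Vector in Malt1_V87R and 2.11-fold in Malt1_L88D (edgeR adjusted p = 5.89e-14 and 1.22e-12), and Mmp3 at 2.03-fold and 1.89-fold. Between Malt1_PD and Malt1_WT, 3 of the 20 were higher in Malt1_PD and 11 lower. The haem oxygenase gene Hmox1 was at 0.441-fold and Il6 at 0.416-fold in Malt1_PD of their levels in Malt1_WT, and the cytokine gene Csf2 at 0.413-fold (adjusted p = 2.38e-12).

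**Figure D5:**
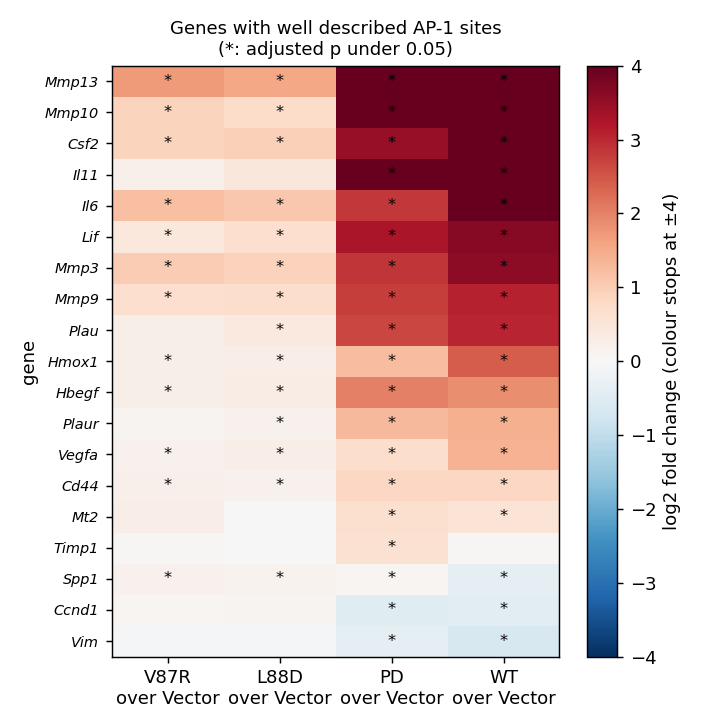
Log2 fold changes over Vector (colour, limited at ±4) of tested genes with well described AP-1 sites, 1 row a gene ordered by the WT column, with the Malt1 constructs V87R, L88D, PD and WT as columns; an asterisk marks an edgeR adjusted p under 0.05. Most rows of the PD and WT columns are above Vector with an asterisk, and the V87R and L88D columns are paler, with Il6 at 2.31-fold and 2.11-fold of Vector.

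Markers of other cell types were read beside these results. The summed level of 20 macrophage and dendritic cell markers, none at 0 in all 15 libraries, was 87.8 to 94.8 CPM in Malt1_PD and 88.3 to 90.1 CPM in Malt1_WT. It was 49.5 to 53.0 CPM in Malt1_V87R, 50.8 to 74.0 CPM in Malt1_L88D and 49.0 to 52.2 CPM in Vector. The sum was thus highest in Malt1_PD and Malt1_WT, as the tested Fos and Jun genes were, but not every marker was. Of the 11 that were tested, 10 were higher and 1 lower in Malt1_PD than in Vector, and 7 higher and 1 lower in Malt1_WT. In these comparisons 22.8% of all genes were higher and 22.0% lower in Malt1_PD, and 27.2% higher and 27.7% lower in Malt1_WT. Ptprc, the pan-leukocyte marker Cd45, had 0 to 5 counts per library, and Cd14 and Cd68 had 22.9 ± 0.477 and 19.0 ± 1.13 CPM in Malt1_PD, against 8.04 ± 0.250 and 12.1 ± 0.516 CPM in Vector (SD, n = 3 each). Lyz2 had 14.4 ± 1.38 CPM in Malt1_PD and 13.8 ± 7.35 CPM in Malt1_L88D, but 4.64 ± 2.27 CPM in Malt1_WT and 5.66 ± 0.0643 CPM in Vector. Fcer1g had 14.1 ± 1.00 CPM in Malt1_PD and 13.0 ± 1.94 CPM in Malt1_WT, below the 16.9 ± 1.11 CPM of Vector. The 8 endothelial markers, none at 0 in all libraries, summed to 22.2 to 24.2 CPM in Malt1_PD and 21.3 to 24.2 CPM in Malt1_WT. Vector had 18.1 to 19.5 CPM, and Malt1_V87R (14.9 to 15.8 CPM) and Malt1_L88D (15.3 to 17.7 CPM) lay below it, unlike the Fos and Jun genes. Of the 3 that were tested, 1 was higher than in Vector in Malt1_PD and 2 in Malt1_WT, with 0 lower in either. The same shares of all genes stand beside these counts, and 3 genes are too few to set against them. The summed 14 T and NK cell markers, of which 3 were at 0 in all libraries, were at 2.49 to 3.08 CPM in Malt1_PD and 3.07 to 4.38 CPM in Malt1_WT, above the 1.72 to 2.23 CPM of Vector, while Malt1_V87R (1.91 to 2.86 CPM) and Malt1_L88D (2.07 to 2.67 CPM) overlapped Malt1_PD. The summed level of 10 fibroblast markers averaged 392 to 456 CPM over the groups, highest in Malt1_PD. The summed level of 11 epithelial markers averaged 97.1 to 128 CPM. Most of that sum was Krt8, at 89.7 to 117 CPM, and 2 of the 11 were tested. The part of other cells in these results was not tested, and in bulk samples more cells of a type and more RNA per cell cannot be told apart.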

How the data were processed

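RNA of 15 libraries was made into stranded libraries and read as paired ends, per the labels' protocols. The authors deposited raw counts per gene, made with Trim Galore 0.6.0, STAR 2.7.3a and featureCounts 1.6.3 on GRCm38.p6, per the submitters' processing notes. Neither the annotation release nor the strand setting nor the treatment of reads over several genes is given in the sources used here. All value columns were mapped to a sample or group by name (0 unmapped).

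Counts were tested with edgeR 4.0.16 in R 4.3.3: filterByExpr, TMM scaling and a robust quasi-likelihood fit of 15 libraries with 1 mean per group, two-sided, with Benjamini-Hochberg adjustment over 14571 genes per comparison and a threshold of 0.05. CPM used TMM-scaled totals, TPM the exon lengths of GENCODE M21 (55341 of 55571 rows, 99.969% of counts). The family, the gene lists and the tests were chosen with earlier results of these data known. From each list up to 3 called genes of smallest adjusted p and at least 5 CPM were named per comparison; values of a named gene in other comparisons were added. Alternatives were DESeq2 1.42.0, limma-voom 3.58.1, RLE and upper-quartile scaling, no filter, only the libraries compared, a replicate block, longest transcript lengths, and each library left out. The fit was tested on simulated data. Jund was left out of tests by the filter. Of the genes with AP-1 sites, 1 is counted in the totals but not reported here by name or drawn.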

Additional observations from a re-analysis of the deposited data

How the results depend on the processing

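The numbers of members called were the same as reported under 7 other settings of the test and with each of the 6 libraries of a comparison left out in turn, in 9 of the 10 comparisons. The exception was Malt1_PD against Malt1_WT, where 3 members were called and 2 to 3 under the alternatives. The member that was lost was Fosl2, at a log2 fold change of -0.10 with no filter on low counts (edgeR adjusted p = 0.131) and -0.13 with only the 6 libraries compared (adjusted p = 0.0547), beside the losses without a Malt1_PD library given above; the cause was not tested. Of 910 alternative values of the tested members and Malt1, 905 kept their direction and side of the threshold, 4 lost a call, 1 (Malt1 in Malt1_V87R against Malt1_L88D) gained one and 0 reversed.

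The labels number the replicates alike in each group. Same-numbered libraries had correlations of their deviations from -0.0513 to 0.15, with 2 of 30 pairs over 0.1, so the numbers were not taken to pair samples, although 9 of 15 libraries were closest on average to their own number. Among the members, replicate 2 was the lowest library in 4 of 5 groups for Fos and for Junb, and replicate 1 in 4 of 5 for Fosl2. For Fosb and Jun no number was lowest in more than 3 groups, and for Fosl1 in more than 2. A shared effect of the number was not tested for these genes. With the replicate number as a block, 6 members were called in Malt1_PD against Vector, 6 in Malt1_WT against Vector and 3 in Malt1_PD against Malt1_WT, as without it. Over all genes, Malt1_V87R against Malt1_L88D had 0 calls, 5 with no filter and 25 with only the 6 libraries. Of the tested members Fosb had the fewest counts, 42 to 91 per library.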
